A study of Mus musculus with 8 samples.

Results

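Myelinating oligodendrocyte nuclei of the mouse hippocampus at postnatal day 21 are described here, 800 of the 11518 nuclei kept from 4 libraries (6.95%). They were chosen on their measured RNA. A kept nucleus was a member when at least 3 of the 8 marker genes Mog, Mal, Mag, Cldn11, Prr5l, Aspa, Opalin and Cldn14 had a UMI (a uniquely tagged RNA molecule), when fewer than 3 of the 5 precursor genes Bmp4, Enpp6, Bcas1os2, Gpr17 and Neu4 did, and when neither the neuronal pair Slc17a7 and Gad2 nor the pair Csf1r and Aqp4, of microglia and astrocytes, had more than 1 UMI together. Wild-type C57BL/6J dams, 8 weeks old, received folic acid (FA) at 2 mg/kg (MF, the control diet) or 20 mg/kg (HF) for 2 weeks before mating and on through pregnancy and lactation, and the hippocampi of their male pups were taken for nuclei. The 10x Genomics multiome assay measured, in each nucleus, both its RNA (GEX) and its open chromatin (ATAC). Each diet had 2 libraries, and the number of pups or litters behind a library was not stated. The diet comparison addressed whether a high maternal FA intake alters gene expression and accessible chromatin in a given cell type of the offspring. All values in series are given in the order MF1, MF2, HF1 and HF2, where the number is the replicate number of the labels.

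Oligodendrocytes wrap axons in myelin, a stack of membranes rich in cholesterol, galactolipids and a small set of proteins. They arise from progenitors that carry the receptor Pdgfra, pass through a short premyelinating stage marked by genes such as Bmp4, Enpp6 and Gpr17, and then switch on the myelin genes under transcription factors that include Sox10, Olig2 and Myrf. In the mouse hippocampus myelin is still being laid down in the weeks after birth, so that progenitors, differentiating cells and myelinating cells are found side by side at weaning.

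Of the kept nuclei, 1340 had at least 3 marker genes with a UMI. Of these, 133 had 3 or more precursor genes, 401 had more than 1 UMI of Slc17a7 plus Gad2, and 97 had more than 1 UMI of Csf1r plus Aqp4, with overlap between the 3 criteria. The 540 nuclei set aside remained in the comparison group of all other kept nuclei (10718, called the rest here), which therefore also holds some oligodendrocyte RNA. Most members lay well inside the marker criterion, with a median of 7 of 8 marker genes in every library and 556 nuclei with 7 or 8, but 158 lay at the limit of 2 precursor genes, and no more than 44, 29, 72 and 65 members were free of any UMI of the precursor and exclusion genes. Just inside the marker limit, 41 members had exactly 3 markers, and just outside 218 nuclei that met the other criteria had exactly 2. A further comparison group was 597 oligodendrocyte progenitor nuclei, also chosen on RNA. They had a UMI of at least 2 of Pdgfra, Cspg4, C1ql1, Cacng4 and Lhfpl3, with Pdgfra or Cspg4 among them. They also had fewer than 3 marker genes and fewer than 3 precursor genes, and met the same limits on the exclusion genes. Another 279 nuclei were differentiating precursors, with at least 3 precursor genes and fewer than 3 marker genes, whose levels are not compared here. Among kept nuclei 76 barcodes occurred in more than 1 library, 15 of them in members.

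Members of the 4 libraries had similar depth. Levels are given as CPM, the UMIs of a gene per 1000000 UMIs summed over the nuclei of that class in a library, and for chromatin likewise as ATAC counts per 1000000 (ATAC CPM). The median UMI count was 5146, 5469, 5171 and 4940, against 6289 to 7345 in the rest and 3052 to 3639 in progenitors. The median ATAC count of members was 14303, 19974, 15023 and 16189. A few facts of the libraries touched the members as well. The 4 haemoglobin genes together made up 1530.0, 293, 263 and 293 CPM in members, so that MF1 stood apart from the other libraries, and they did so in the rest too (255 to 1893 CPM). Ttr, the transthyretin gene of the choroid plexus, was at 43.7, 1.22, 106 and 0.758 CPM in members (46, 1, 189 and 1 UMIs), high in both libraries with replicate number 1. The effect of these differences on the results was not tested. Genes are named below by a fixed rule and grouped by lists of known function. Some lists, such as those of structural myelin and lipid genes, also hold marker genes of the rule. Their RNA counts against the rest are therefore partly fixed by the choice of members.

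The label held up against markers that played no part in the choice. All 9 such markers were higher in members than in the rest in all 4 libraries. Mbp, myelin basic protein, was at 6963, 7917, 6332 and 7672 CPM, 17.1 to 24.9 times the level of the rest, and Mobp was at 2838, 2848, 1873 and 2998 CPM, 23.5 to 41.5 times. In both genes every library of members lay above every library of the rest. The myelin regulator Myrf stood at 132, 92.5, 91.4 and 93.2 CPM in members against 4.66 to 6.82 CPM in the rest and 1.61 to 8.68 CPM in progenitors. For these RNA levels no test is given, because RNA chose the members. Over all 32285 genes of the files, 3759 were higher in members than in the rest in all 4 libraries and 9194 were lower. Against progenitors 2727 were higher in all 4 libraries and 4428 lower.

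**Figure D1:**
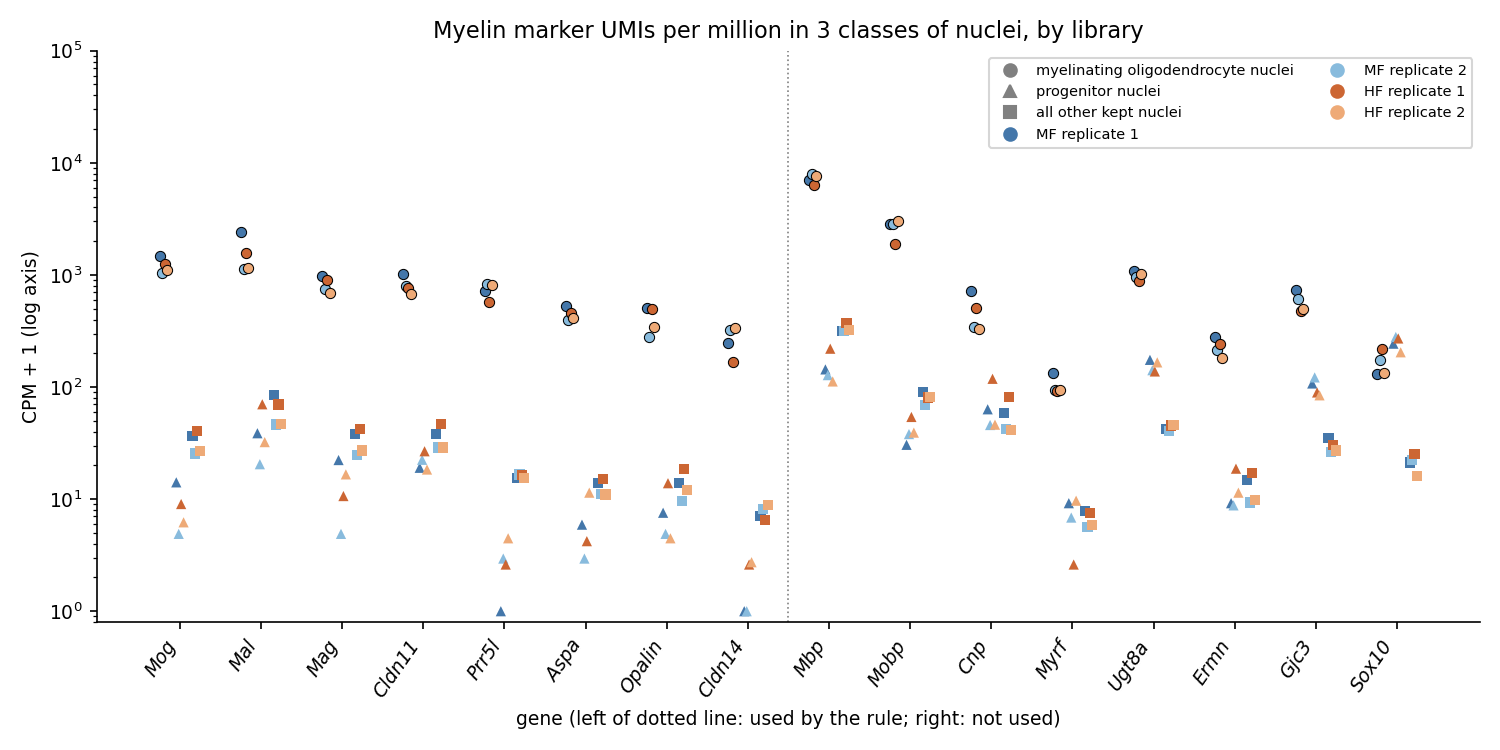
CPM (plus 1, log axis) of the 8 marker genes used by the rule and 8 of the 9 that were not, each point a library, in members (outlined circles), progenitors (triangles) and all other kept nuclei (squares). Members of all 4 libraries lie above both other classes except for Sox10, which is at 130.0 to 218 CPM in members and 203 to 279 CPM in progenitors.

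The marker genes of the rule are shown for description. Mog, a surface glycoprotein of the outermost myelin, was at 1462, 1045, 1263 and 1113 CPM in members and at 24.5 to 39.4 CPM in the rest. Mal, a myelin proteolipid, was at 2436, 1123, 1565 and 1152 CPM, and Mag, an adhesion protein of the inner myelin face, at 968, 750.1, 898 and 683 CPM. The claudin Cldn11, which seals the layers of myelin, was at 1018, 789, 761 and 675 CPM. MF1 had the highest value in each of these 4 genes. The remaining markers, which are known from the same cells, were at 573 to 824 CPM (Prr5l), 393 to 529.6 CPM (Aspa, which frees acetate for lipid synthesis), 278 to 505 CPM (Opalin) and 165 to 338 CPM (Cldn14). Of the precursor genes, of which members could show no more than 2, Bmp4 and Neu4 were nearly gone (0.949, 0, 0 and 1.52 CPM and 0, 0, 1.68 and 1.52 CPM), while Enpp6 stayed at 168, 105, 109.9 and 114 CPM, 4.06 to 7.35 times the level of the rest.

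Genes listed as markers of microglia, astrocytes, neurons and vessels were detected in members, at sums below those of the rest in each library. The 6 microglia genes summed to 41.8, 70.6, 128 and 57.6 CPM in members against 248 to 577 CPM in the rest, and all 6 were lower than in the rest in all 4 libraries. For the 6 astrocyte genes, of which 4 were lower throughout, the sums were 329, 479.8, 488 and 403 CPM against 760.0 to 1290.3 CPM. For the 5 genes of excitatory neurons, of which 4 were lower throughout, they were 383, 391, 483 and 398 CPM against 976 to 1175 CPM. The exception among these genes of excitatory neurons was Prox1, a homeobox factor of dentate granule neurons. It was higher in members (217, 203, 237 and 216 CPM) than in the rest (141 to 154 CPM) in all 4 libraries. Its promoter had 42.9, 21.9, 30.4 and 33.0 ATAC CPM in members and 14.8 to 21.5 in the rest. In oligodendrocyte progenitors it had 51.8, 20.8, 31.5 and 32.6 ATAC CPM (log2 -0.03 for members over progenitors, FDR 0.91 by edgeR). Prox1 is a large part of the excitatory sum, and the cell type behind its RNA was not tested. The 4 genes of inhibitory neurons summed to 143, 116, 77.9 and 97.0 CPM against 163 to 210.0 CPM, with 3 of them lower in all 4 libraries. The 6 vascular genes summed to 6.64, 6.09, 23.5 and 4.55 CPM against 14.4 to 31.1 CPM, with 3 lower in all 4 libraries. No list was at 0 in any library of members, and the excluded genes stood at 21.2 to 33.1 CPM (Slc17a7) and 2.44 to 5.31 CPM (Aqp4).

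Of 19 structural myelin genes, 18 were higher in members than in the rest in all 4 libraries, and 16 were higher than in progenitors. Over all 32285 genes these counts were 3759 and 2727. The tetraspanin gene Tspan2 was at 1277, 1044, 992 and 1118 CPM, 22.7 to 29.5 times the rest. Ermn, a cytoskeletal protein of the myelin sheath, was at 278, 212, 242 and 181 CPM, and Cnp, whose product keeps the cytoplasmic channels of myelin open, at 716, 341, 502 and 328 CPM. Gpm6b, a proteolipid of neurons and glia alike, was the gene that was not higher throughout, at 756, 737, 521 and 727 CPM in members and 499.8, 551, 549 and 539 CPM in the rest. Cd9 was higher than in the rest but lower than in progenitors in all 4 libraries (70.5 to 136 CPM in members and 212 to 418 CPM in progenitors).

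Of 24 genes that make myelin lipid, 23 were higher than in the rest in all 4 libraries. Enpp2, whose product autotaxin makes lysophosphatidic acid, was at 1481, 1173, 1078 and 1307 CPM, 13.7 to 23.5 times the rest, and the fatty acid elongase Elovl7 at 363, 442, 430.0 and 379 CPM. Enzymes of the galactolipid pathway were likewise high. Ugt8a, which adds galactose to ceramide, was at 1084, 966, 875 and 1013 CPM and 19.7 to 26.1 times the rest. Fa2h, which hydroxylates the fatty acid of these lipids, was at 517, 461, 420.5 and 436 CPM, and the sulfotransferase Gal3st1 at 215, 128, 161 and 117 CPM. Hmgcs1, an early enzyme of cholesterol synthesis, was at 312, 285, 272 and 215 CPM, 3.74 to 5.86 times the rest, and Fdft1, squalene synthase, at 133, 105, 101 and 76.6 CPM, 2.74 to 4.75 times. Scd1 was the single gene without a constant direction, at no more than 7.59 CPM in members, whereas its relative Scd2 was at 488, 365, 445 and 294 CPM.

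All 12 genes of axon-glia contact and of junctions, and all 12 lineage transcription factors, were higher than in the rest in all 4 libraries. Nfasc, a cell adhesion protein of the paranode, was at 1372, 1809, 1442 and 1803 CPM, 5.47 to 6.87 times the rest, Tjp1, a tight junction scaffold, at 720.4, 805, 673 and 897 CPM and the connexin gene Gjc3 at 728, 615, 471 and 499 CPM. The junction gene Jam3 was at 326 to 403 CPM. Hapln2, which links the matrix at the nodes of Ranvier, was at 56.9, 68.2, 47.1 and 39.4 CPM against 0.621 to 1.71 CPM. The gap junction gene Gjb1, whose product couples oligodendrocytes to other glia, was at 29.2 to 51.3 CPM, against 0.776 to 2.26 CPM in the rest. Among transcription factors, members and progenitors shared part of the set. St18 (3379, 3502, 2818 and 4268 CPM, against 17.4 to 52.6 CPM in progenitors) and Nkx6-2 (73.1, 52.4, 60.0 and 33.3 CPM, against 3.90 to 6.43 CPM) were higher in members than in progenitors in all 4 libraries. The broadly used factors Zeb2 and Zfp536 were at 1816 to 2244 CPM and 1509 to 2090.4 CPM in members and at 646 to 733 CPM and 172 to 253 CPM in progenitors. Sox10, Olig1, Olig2 and Nkx2-2 were lower in members than in progenitors in all 4 libraries, and Olig2 was at 72.1, 56.0, 46.5 and 42.4 CPM in members and 157, 144, 177 and 99.0 CPM in progenitors.

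Of 12 genes that serve the axon or handle ions, 11 were higher than in the rest in all 4 libraries. Fth1, ferritin heavy chain, was at 1119, 403, 698 and 331 CPM, 1.87 to 2.55 times the rest. Trf, the iron carrier transferrin, was at 667, 446, 589.8 and 434 CPM, 17.4 to 25.9 times the rest, Gsn, the actin-severing gelsolin, at 546, 397, 436 and 319 CPM, Car2, a carbonic anhydrase, at 318, 272, 267 and 238 CPM and Carns1, which makes carnosine, at 113, 74.3, 77.4 and 73.5 CPM. Slc16a1, a lactate transporter, was at 21.8, 15.8, 23.0 and 18.9 CPM, only 1.27 to 1.78 times the rest. Ldhb, a lactate dehydrogenase subunit, was lower than in the rest in all 4 libraries. The progenitor list moved the other way, with 10 of 11 genes lower than in the rest and all 11 lower than in progenitors in all 4 libraries. The count against progenitors was partly fixed in advance, because the list holds Pdgfra, Cspg4, C1ql1, Cacng4 and Lhfpl3, which chose the progenitors. Over all 32285 genes, 9194 were lower than in the rest and 4428 lower than in progenitors in all 4 libraries. Pdgfra was at 8.54, 18.3, 14.6 and 12.1 CPM in members and at 813, 741, 732 and 622 CPM in progenitors, Pcdh15 at 353, 441, 332 and 487 CPM against 3352 to 3894 CPM and the matrix gene Tnr at 306, 347, 225 and 183 CPM against 2213 to 3001 CPM. Of the genes of early oligodendrocytes 8 of 10 were higher than in the rest in all 4 libraries, among them Bcas1 (574, 571, 493 and 462 CPM, 4.65 to 7.58 times the rest), and of the late genes 10 of 14, among them the glutamate receptor Grm3 (288, 257, 177 and 276 CPM).

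Genes of folate and one-carbon metabolism, the pathway the diet feeds, are given next. Of 40 genes, 5 were higher than in the rest in all 4 libraries and 15 were lower, against 3759 and 9194 of 32285 for all genes, and Folr1, Ftcd and Mat1a had no UMI in members. Mat2a, which makes S-adenosylmethionine, was at 359.7, 407, 269.7 and 365 CPM, 1.99 to 3.10 times the rest. Gamt, which methylates guanidinoacetate to creatine, was at 72.1, 30.4, 57.2 and 37.9 CPM, 5.30 to 9.33 times, and Gart, a folate-dependent enzyme of purine synthesis, at 36.1, 36.5, 30.3 and 28.0 CPM, 1.84 to 2.26 times. The reduced folate carrier Slc19a1 was near the limit of detection at 0.949, 1.22, 3.36 and 3.79 CPM. Ahcyl2, a relative of the enzyme that clears S-adenosylhomocysteine, was lower than in the rest in every library (169, 217, 253 and 189 CPM against 569 to 679 CPM).

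The 20 genes with the highest ratio of members to rest, taken at the lowest of the 4 libraries and without the genes of the rule, included few that are known as myelin genes. The ratio was at least 23.6 for each of them. The long noncoding RNA genes Gm48508 and C030029H02Rik were at 75.0, 68.2, 56.1 and 68.2 CPM and 94.0, 68.2, 86.9 and 64.4 CPM in members, with 0.983 to 1.86 CPM and 1.46 to 2.52 CPM in the rest. Nipal4, a magnesium transporter, was at 130.0, 101, 121 and 88.7 CPM, Sec14l5, a lipid transfer protein, at 399.6, 343, 278 and 350.2 CPM, and Erbb3, a receptor for neuregulin, at 113, 73.1, 97.6 and 82.6 CPM. Tnni1, a troponin of slow muscle, was at 93.0, 142, 147 and 129.6 CPM against 3.04 to 4.29 CPM in the rest. Sytl2, a synaptotagmin-like protein of vesicle transport, was at 821, 830.4, 964 and 912 CPM, and Prima1, which anchors acetylcholinesterase, at 92.1, 99.8, 126 and 118 CPM. All 20 were higher in members than in progenitors in all 4 libraries, including Mcam, Galnt6, Plekhh1, Ninj2, Insc, Depdc1b, Cyp2j12, 4930420G21Rik, 1700047M11Rik, D7Ertd443e and Gm19500, and Erbb3 came closest, with 11.5 to 23.4 CPM in progenitors. Over all genes 2727 of 32285 were higher. The count of 20 was partly fixed in advance, because the genes were picked for their RNA ratio to the rest, which holds the progenitors.

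Chromatin was measured separately from the RNA that chose the members, so promoters could be tested. ATAC counts in peaks within 1 kb of a gene start were summed per library and class and compared within libraries by edgeR's quasi-likelihood test, with the library as a block and Benjamini-Hochberg adjustment (FDR). Of 19896 promoters tested against the rest, 1262 were more accessible in members (6.34%) and 4565 less (22.9%), at an FDR under 0.05 and at least 1.5-fold. Of 15856 tested against progenitors, 1143 were more accessible (7.21%) and 2318 less (14.6%). The marker genes of the rule can be read against these shares. Of their 8 promoters, 7 were more accessible than in the rest. Against progenitors no count is read, because promoters such as those of Mog, Mag and Prr5l, with 0 to 5 counts in each library of progenitors, passed the filter on low counts through members alone, and that of Aspa did not pass it. When only nuclei without a UMI of the precursor or exclusion genes were kept as members, 3004 promoters in all differed from the rest, against 5827 with the full rule. In that setting the members left out counted among the rest, so the 2 comparisons differ in both classes.

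The promoters with large differences among the named genes are shown by the 250 bases before the RefSeq start, for Mog (chr17:37023399-37023648, minus strand), Mag (chr7:30914864-30915113, minus strand), Mobp (chr9:120149492-120149741, plus strand), Ermn (chr2:58052865-58053114, minus strand) and Hapln2 (chr3:88027512-88027761, minus strand), with that of Neu4 (chr1:94020243-94020492, plus strand), which was less accessible than in progenitors, for contrast. Coordinates are those of GRCm38.p6 (mm10), the RefSeq starts lie within 72 bp of the GENCODE gene starts, and each stretch is read 5′ to 3′ on the strand of the gene. Capitals mark matches on either strand to ACAAAG, the core bound by SOX factors, or to CTGGNAC, a motif of the MYRF type, which do not overlap here.
Mog: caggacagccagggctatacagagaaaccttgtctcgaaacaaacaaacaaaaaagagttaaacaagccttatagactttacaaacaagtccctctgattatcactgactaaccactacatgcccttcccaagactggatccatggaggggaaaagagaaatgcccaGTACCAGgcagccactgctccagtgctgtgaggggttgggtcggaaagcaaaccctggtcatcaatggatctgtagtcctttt
Mag: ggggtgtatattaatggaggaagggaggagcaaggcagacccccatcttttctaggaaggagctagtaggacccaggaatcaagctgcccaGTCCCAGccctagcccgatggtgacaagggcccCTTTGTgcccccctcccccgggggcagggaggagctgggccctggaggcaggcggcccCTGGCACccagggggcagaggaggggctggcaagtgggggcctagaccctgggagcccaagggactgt
Mobp: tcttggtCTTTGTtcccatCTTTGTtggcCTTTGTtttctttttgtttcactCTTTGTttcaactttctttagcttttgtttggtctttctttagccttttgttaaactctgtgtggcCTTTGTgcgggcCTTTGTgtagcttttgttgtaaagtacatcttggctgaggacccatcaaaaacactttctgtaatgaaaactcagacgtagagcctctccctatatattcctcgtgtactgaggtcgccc
Ermn: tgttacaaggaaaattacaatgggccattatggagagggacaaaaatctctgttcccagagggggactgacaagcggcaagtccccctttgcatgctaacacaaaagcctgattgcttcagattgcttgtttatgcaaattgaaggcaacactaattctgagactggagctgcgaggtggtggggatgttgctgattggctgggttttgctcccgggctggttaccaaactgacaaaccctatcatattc
Hapln2: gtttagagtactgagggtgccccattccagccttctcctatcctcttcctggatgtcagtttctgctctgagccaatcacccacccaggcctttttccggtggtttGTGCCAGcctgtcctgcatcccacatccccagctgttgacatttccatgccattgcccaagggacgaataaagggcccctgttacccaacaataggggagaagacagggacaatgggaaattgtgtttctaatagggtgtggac
Neu4: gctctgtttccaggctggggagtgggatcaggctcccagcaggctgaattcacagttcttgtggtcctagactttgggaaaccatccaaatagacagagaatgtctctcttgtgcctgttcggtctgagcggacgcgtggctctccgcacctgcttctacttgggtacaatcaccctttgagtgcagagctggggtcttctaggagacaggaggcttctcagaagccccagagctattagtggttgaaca

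Over all 17016 promoters of this length with a start near the GENCODE one, 15.0% held ACAAAG and 15.7% held CTGGNAC, and of the 12629 with a sequence that were tested against the rest 12.5% and 15.8% did. Of the promoters more accessible in members than in the rest 745 had a sequence, and 15.3% and 20.4% of these held the motifs. Of the less accessible ones, 14.4% and 16.9% did. Among the 350 with a sequence that were more accessible than in both the rest and progenitors, CTGGNAC occurred in 25.7% and ACAAAG in 15.7%. These shares are descriptions. In the Mobp promoter ACAAAG matched 6 times, and no other promoter of the 17016 held as many. The Mag promoter held CTGGNAC 2 times and ACAAAG 1 time, and the windows of Ermn and Neu4 held neither.

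The Mobp promoter had 62.9, 69.6, 52.1 and 60.6 ATAC CPM in members and 1.45 to 1.92 in the rest, a log2 fold change of 4.94 (SE 0.17, FDR 4.4e-28 by edgeR). Progenitors had no count there in any library, so no fold over them is given. Mog had 48.0, 48.4, 41.6 and 48.7 ATAC CPM in members against 1.37 to 2.10 in the rest, with a log2 fold change of 4.54 (SE 0.21), and progenitors had 0, 5, 0 and 0 counts. For Mag the values were 38.5, 41.1, 48.1 and 42.7 against 1.77 to 1.92, with a log2 fold change of 4.33, and progenitors had 0, 0, 2 and 5 counts. Ermn and Hapln2 differed from the rest by 4.52 and 4.37 on the log2 scale. Progenitors had 0, 7, 4 and 3 counts at Ermn and 4, 0, 8 and 2 at Hapln2, and no fold over so few counts is given. In all 5 genes every library of members lay above every library of both other classes.

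The start of the gene was not always where members were accessible. At the annotated Aspa start, members had 0, 0, 0.934 and 2.28 ATAC CPM and the rest 1.35 to 1.72, which did not pass the test (log2 -1.15, FDR 0.15 by edgeR), although Aspa RNA was 32.1 to 41.1 times the rest. At an Aspa transcript start 2789 bp away, members had 6.18, 7.69, 2.33 and 6.55 ATAC CPM and the rest 0.661 to 1.27. At another Aspa transcript start, 4962 bp away, members had 17.8, 0, 19.1 and 14.2 ATAC CPM and the rest 0 to 0.819. MF2 had no peak there. At the Mbp gene start, the one of the longest transcripts, accessibility was lower in members than in the rest (10.9, 6.15, 9.57 and 9.11 against 14.4 to 17.9 ATAC CPM, log2 -1.03, FDR 3.6e-06 by edgeR). At a transcript start 79324 bp further into Mbp members had 77.4, 71.5, 71.2 and 86.8 ATAC CPM and the rest 4.18 to 4.98, with no overlap between the classes. These further starts were looked up after the values at the gene starts were seen.

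Counts by role are read beside the 6.34% more and 22.9% less accessible of all promoters, and differences between roles were not tested. Of 19 promoters of structural myelin genes 13 were more accessible than in the rest and 1 less, of 11 promoters of axon-glia genes 7 were, and of 12 promoters of transcription factors 10 were, with medians of 1.73, 1.22 and 1.62 on the log2 scale against -0.03 over all promoters tested. For myelin lipid genes 7 of 23 passed, with a median of 0.41. Those that passed included Ugt8a (log2 2.25), Fa2h (2.01) and Gal3st1 (2.10). The cholesterol gene promoters of Hmgcs1 (0.34) and Sqle (0.47) did not reach 1.5-fold. Of 9 support genes 6 were more accessible, among them Trf (2.29) and Carns1 (3.31), and Ldhb was less accessible (-0.95). Of the 20 genes with the highest RNA ratio, 16 were more accessible than in the rest, while 4 had no promoter that passed the filter on low counts, which a promoter can pass through members alone. Against progenitors no count is read for them, because promoters such as that of 4930420G21Rik had 1, 0, 0 and 0 counts there.

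**Figure D2:**
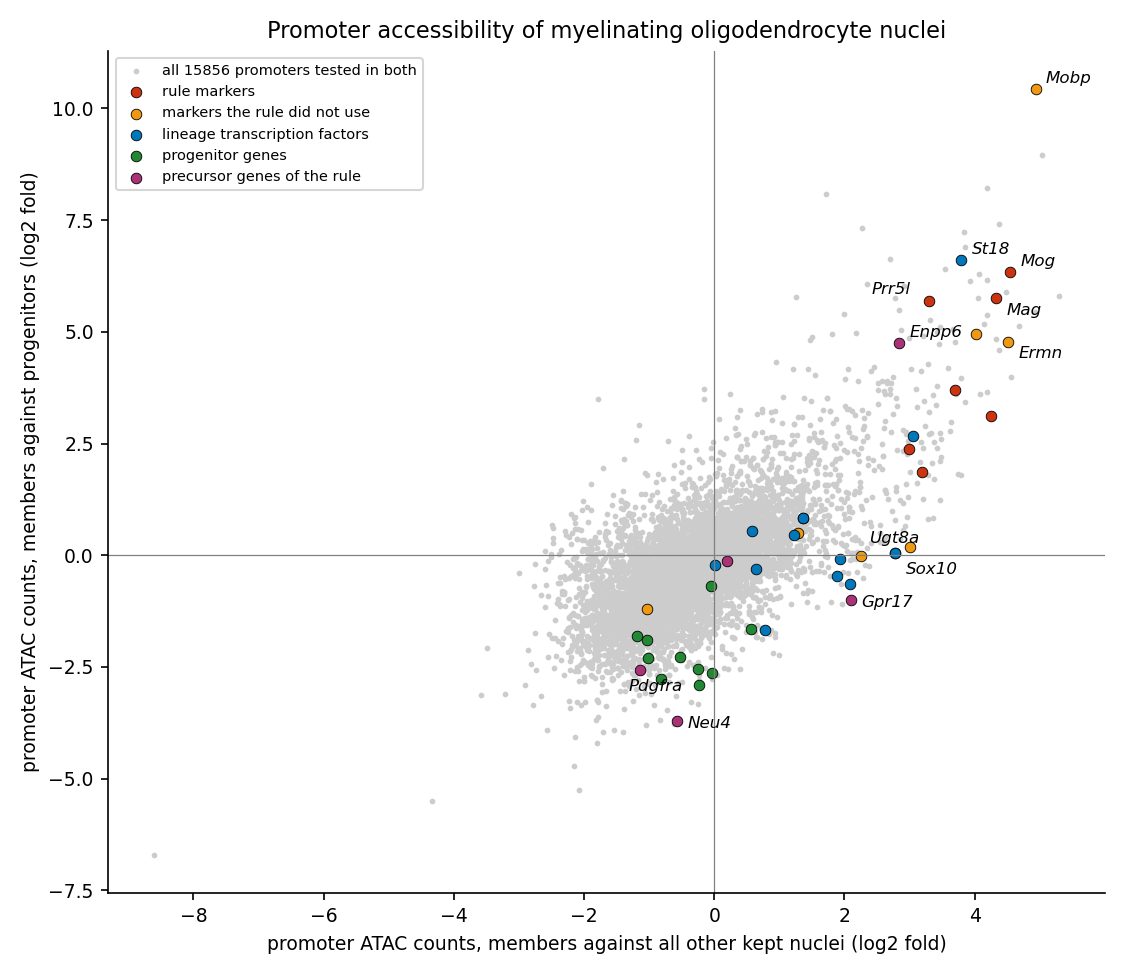
Each point is a promoter, with the log2 fold change of ATAC counts in members over all other kept nuclei on the x axis and over progenitors on the y axis, for 15856 promoters tested in both and coloured for 5 gene lists. Marker promoters such as Mog (log2 4.54 over the rest) lie to the right, their height being a fitted value over few progenitor counts (0, 5, 0 and 0 for Mog), Sox10 (2.78 and 0.05) is high on the x axis alone, and progenitor genes lie below 0 on the y axis.

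Counts against progenitors are read beside the 7.21% and 14.6% of all promoters tested. Of 12 transcription factor promoters 3 were more accessible in members than in progenitors and 2 less, and the median was -0.02. The St18 promoter, among the 3, had 25.8, 31.5, 25.2 and 18.8 ATAC CPM in members and 2, 0, 0 and 0 counts in progenitors, so that it passed the filter through members alone. Nkx6-2 was higher (log2 2.68), Olig2 and Nkx2-2 lower (-0.65 and -1.68). The Sox10 promoter did not pass between members and progenitors (log2 0.05, SE 0.11, FDR 0.77 by edgeR), nor did that of Ugt8a (log2 -0.01, SE 0.12), although Ugt8a RNA was at 875 to 1084 CPM in members and 137 to 174 CPM in progenitors. Of 22 lipid promoters 2 were more accessible in members, close to the share of all promoters. Of 11 progenitor genes, 10 had a promoter past the filter on low counts, which progenitors alone can carry, and it was less accessible in members than in progenitors for these 10 and less than in the rest for 4.

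The precursor genes of the rule diverged in chromatin. The Neu4 promoter had 2.18, 9.23, 3.27 and 3.41 ATAC CPM in members and 54.1 to 64.0 in progenitors (log2 -3.72, FDR 1.1e-29 by edgeR). The Gpr17 promoter stayed open, with 52.7, 66.1, 60.7 and 61.5 ATAC CPM in members and 11.3 to 13.2 in the rest (log2 2.10), yet below progenitors (log2 -1.01), while Gpr17 RNA was at 18, 12.2, 17.9 and 16.7 CPM in members and 192, 142, 158 and 151 CPM in progenitors. At the Enpp6 promoter members were above the rest (log2 2.84), and progenitors had 0, 1, 0 and 1 counts. Of the folate and one-carbon genes 3 of 37 promoters were more accessible than in the rest and 9 less, shares close to the 6.34% and 22.9% of all promoters. Among them the Gamt promoter had the highest value (log2 1.39 over the rest and 1.91 over progenitors).

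Members were not uniform. Within each library they were ordered by the UMIs of 14 genes of late oligodendrocytes against 10 genes of early ones and split into tertiles of 61, 41, 92 and 71 nuclei. The order rests on RNA, so the differences are given as description. Among genes of neither list, A330049N07Rik was at 93.3 to 187 CPM in the late tertiles and 5.67 to 9.73 CPM in the early tertiles, Rftn1, which organizes lipid rafts, at 134 to 221 CPM and 17.2 to 41.7 CPM, and Mgp, a matrix protein that checks calcification, at 111 to 252 CPM and 17.2 to 73.7 CPM. The early tertiles were marked by Cemip2, a hyaluronan-degrading enzyme, at 129 to 941 CPM against 6.80 to 22.3 CPM, by Prom1, a protein of membrane protrusions, at 249.5 to 308 CPM against 4.64 to 20.3 CPM, and by Onecut2, a transcription factor, at 313 to 388 CPM against 45.2 to 92.7 CPM. The other genes with large differences were 4930420G21Rik, Slco3a1, Myo1e, Prrg1 and Tmem117 on the late side and Etv6, Nckap5, Nebl, Carmil1 and Tnik on the early side, each in the same direction in 4 of 4 libraries. Of the list genes, the late gene Apod was at 304 to 718 CPM in the late tertiles and 17.2 to 89.4 CPM in the early tertiles, and the early noncoding RNA 9630013A20Rik at 13.9 to 30.6 CPM and 1483 to 3396 CPM.

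Depth moved with this order. The early tertiles had a median of 6128, 7522, 6836 and 6832 UMIs, and the late tertiles 4432, 4424, 4055 and 3881, while both had a median of 7 marker genes except in the early tertile of MF2, which had 6. The part of depth in the order was not tested. Structural myelin genes did not follow it closely. Of 16 compared, 9 were higher in the late tertiles, with a median log2 difference of 0.18, against 1702 of 2950 and 0.07 over all genes of at least 50 CPM. The late genes Klk6, Anxa5, Il33 and Hopx, known from older oligodendrocytes, were at no more than 22.4 CPM in any library of members. Late genes held 50.3, 32.6, 52.0 and 36.2% of the UMIs of both lists in all members, so the 2 libraries with replicate number 1 were high and the 2 with number 2 low, in both diets.

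**Figure D3:**
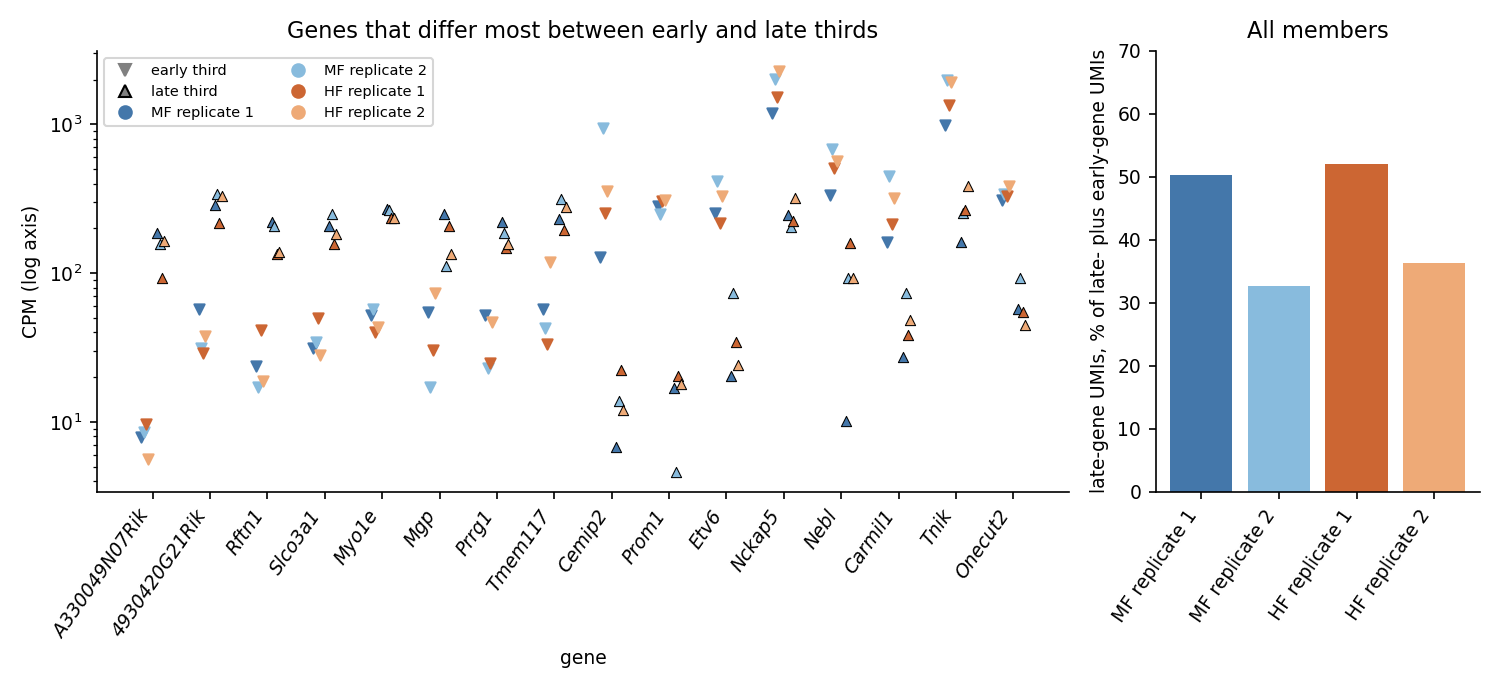
Left, CPM (log axis) of the 16 genes with the largest median difference between tertiles, in the early (downward triangles) and late (outlined upward triangles) tertile of members of each library. Right, bars give the UMIs of late genes as a percentage of late plus early genes over all members of a library, 50.3 and 52.0% in MF1 and HF1 and 32.6 and 36.2% in MF2 and HF2.

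Between diets, members took up a somewhat larger share of HF libraries. They made up 6.31% of kept nuclei in MF1 (95% exact binomial interval 5.45 to 7.26%), 5.51% in MF2 (4.61 to 6.54%), 8.00% in HF1 (7.12 to 8.96%) and 7.42% in HF2 (6.49 to 8.44%), intervals that cover counting error only. Both HF libraries lay above both MF libraries. The mean was 5.91% ± 0.565 (SD, n = 2) in MF and 7.71% ± 0.412 (SD, n = 2) in HF, 1.80 percentage points apart. An exact two-sided permutation test over the 4 libraries gave p = 0.33, the smallest this test can give for 2 against 2, so it cannot take this difference past 0.05. Oligodendrocyte lineage nuclei were taken as members, differentiating precursors and progenitors, and members were 45.4, 41.1, 50.9 and 50.6% of them (exact permutation p = 0.33). The 133 nuclei with at least 3 marker and 3 precursor genes were in none of these groups. Differentiating precursors made up 2.35, 2.49, 2.76 and 2.04% of kept nuclei and progenitors 5.24, 5.42, 4.95 and 5.21%. When members with any UMI of a precursor or exclusion gene were left out, members were 1.52, 1.29, 2.07 and 2.24% of kept nuclei, means of 1.40% and 2.16%, 0.755 points apart, and the difference in the lineage share was 7.07 points, against 7.52 with all members.

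**Figure D4:**
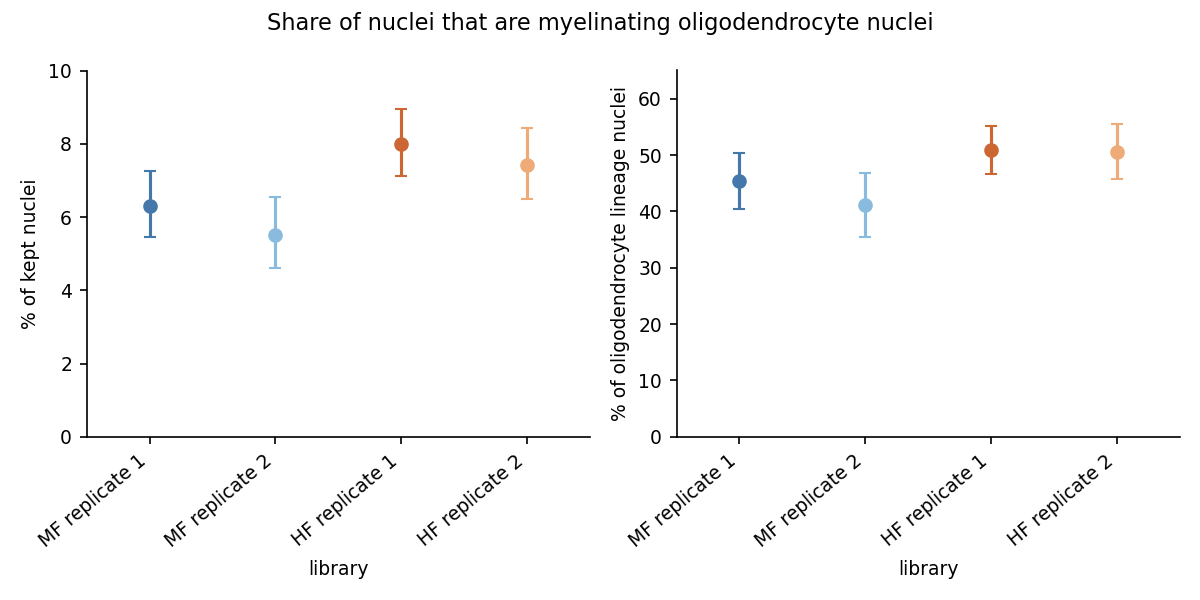
Members as a percentage of kept nuclei (left) and of oligodendrocyte lineage nuclei (right), a point for each library with its 95% exact binomial interval. Both HF libraries lie above both MF libraries in each panel, 7.42 and 8.00% against 5.51 and 6.31% on the left.

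No gene passed the test between diets in members. Of 10044 genes tested with edgeR on UMI counts summed per library, 0 were called at an FDR under 0.05 and at least 1.2-fold (0%), the smallest FDR was 0.554, and 259 had an unadjusted p under 0.05, 169 of them higher in HF and 90 lower. DESeq2 also called 0, with 56 at an unadjusted p under 0.05. Leaving out 1 library changed the count, to 50 without MF2 and to 2 without HF2. Mbp, which the rule did not use, differed by -0.06 (SE 0.44) on the log2 scale, and Mobp by -0.18 (SE 0.38). Nothing is read from the 8 marker genes of the rule, since membership was set on their RNA.

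The myelin lists leaned slightly to lower values in HF without any gene passing. Marker genes of the rule, whose RNA set membership, were not taken out of these lists, so the lean is given as description only. Of 19 structural genes 15 were lower in HF (median log2 -0.18), of 23 tested lipid genes 20 (median -0.21), of 12 axon-glia genes 9 (median -0.20) and of 12 transcription factors 8 (median -0.16), against 5133 of 10044 and a median of -0.01 over all genes. The lean turned round with membership. With only nuclei free of precursor and exclusion UMIs the medians of these 4 lists were 0.18, 0.20, 0.19 and 0.22, and without MF1 they were 0.04, -0.09, -0.17 and -0.10, so that the structural list alone turned. Leaving out another library moved single lists further down, with lipid genes at -0.43 without HF1, axon-glia genes at -0.30 without HF2 and transcription factors at -0.39 without MF2. Others moved up, with structural and lipid genes at -0.10 and -0.13 without HF2. Without the decile of members with most UMIs, an alternative chosen after the data were seen, they were -0.05, -0.06, -0.08 and -0.03. In 8 of the 23 lipid genes and 6 of the 12 axon-glia genes both HF libraries were below both MF libraries, as were 14.8% of all genes tested, and 12.4% of all genes had both HF libraries above both MF libraries. In the structural list 2 of 19 were below and 0 above. Among lipid genes Fdft1 was at 133, 105, 101 and 76.6 CPM (log2 -0.40, SE 0.24). Of 16 folate and one-carbon genes tested, 9 were higher and 7 lower in HF (median 0.05).

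Genes with the smallest p-values between diets were for the most part no oligodendrocyte genes. Higher in HF were Sgcd, which encodes a sarcoglycan, at 32.3, 73.1, 253 and 149 CPM (log2 1.96, SE 0.36), the heparan sulfate sulfotransferases Hs6st2 (6.64, 8.52, 26.9 and 32.6 CPM, log2 2.00) and Hs3st4 (18, 91.3, 175 and 202 CPM, log2 1.83), the muscarinic receptor Chrm2 (1.90, 1.22, 12.9 and 13.6 CPM, log2 3.0) and Brinp3 (66.4, 96.2, 208 and 147 CPM, log2 1.15). All 5 were lower in members than in the rest, where Sgcd was at 494 to 689 CPM and Hs3st4 at 499.7 to 741 CPM. Their UMIs, pooled over the libraries, came from few nuclei. The decile of members with most UMIs in each library, 82 nuclei, held 24.8% of all member UMIs and 12.3% of those of Mog, but 83.7% of those of Sgcd, 85.4% of Hs3st4, 79.0% of Hs6st2, 75.0% of Chrm2 and 64.0% of Brinp3. The HF libraries carried most of these shares. For Sgcd the decile held 13 of 34, 24 of 60, 418 of 452 and 166 of 196 UMIs, for Hs3st4 0 of 19, 63 of 75, 298 of 312 and 213 of 266, and for Brinp3 10 of 70, 36 of 79, 292 of 371 and 119 of 194. Without these nuclei Sgcd and Brinp3 changed sign, to -0.50 and -0.02, Hs3st4 was at 0.60, and Hs6st2 and Chrm2 no longer had enough counts to be tested.

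Lower in HF were Vip, a neuropeptide of interneurons, with 33, 25, 3 and 9 UMIs in members, Adarb2, a marker of interneurons of caudal origin, at 278, 211, 111 and 124 CPM, the haemoglobin genes Hba-a1 and Hba-a2, and Tmem268 at 33.2, 19.5, 10.1 and 9.85 CPM. The Vip UMIs lay in 11 nuclei, and 58 of the 70 in 4 nuclei of the MF libraries. For Adarb2, the 5 nuclei with most of its UMIs in each library held 232 of 293, 137 of 173, 79 of 198 and 73 of 163. Without the decile of members with most UMIs Vip and Adarb2 passed the test (log2 -3.83 and -1.91, edgeR FDR 0.0036 and 0.0058), as they did with only nuclei free of precursor and exclusion UMIs (log2 -4.79 and -4.71, edgeR FDR 0.025 and 0.0096), and they were the 2 genes called in each of these settings. Hba-a2 was at 257, 58.4, 43.2 and 37.1 CPM, so that the difference (log2 -1.94, SE 0.46, FDR 0.9996 by edgeR) was that of MF1 from the other 3 libraries, the pattern seen for haemoglobin in the rest. Without MF2, where MF1 alone stands for its diet and is assumed to vary like the HF libraries, Hba-a1 and Hba-a2 passed the test (log2 -2.50 and -2.59), and so did Sgcd, Hs6st2, Brinp3, Hs3st4 and Vip. Without HF2, Sgcd and Vip passed (log2 2.24 and -4.16). All 4 haemoglobin genes were lower in HF (median -1.69), and the 4 tested microglia genes were higher (median 0.83). The haemoglobin median was -0.15 without MF1 and -2.40 without MF2. The microglia median was 0.29 without HF1 and 1.51 without MF2, and over all 6 microglia genes MF2 (70.6 CPM) lay above HF2 (57.6 CPM).

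**Figure D5:**
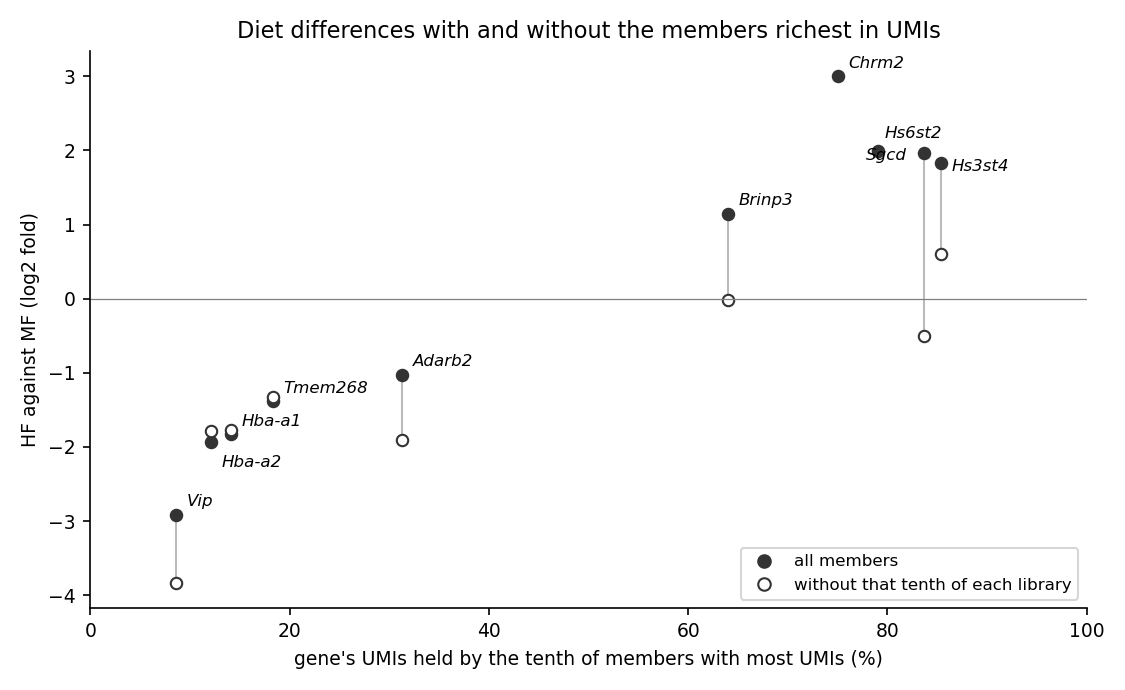
For the 10 genes with the smallest p-values between diets, the share of their UMIs in members held by the decile of members with most UMIs (x axis, %) and the log2 fold change of HF over MF (y axis) with all members (filled) and without that decile (open). The 5 genes higher in HF lie at 64.0 to 85.4% and the 5 lower ones at 8.57 to 31.3%. Hs6st2 and Chrm2 have no open point because they could not be tested without those nuclei. The 5 nuclei of each library with most UMIs of the gene itself, not shown, held 100% of Vip and 63.0% of Adarb2 UMIs. For the 5 genes higher in HF they held 61.5 to 93.2%, and for the other lower ones 19.4 to 37.8%.

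Whether the diet difference itself differed between members and the rest was tested as the interaction of diet and class with the library as a block. Of 17238 genes 27 passed at an FDR under 0.05 (0.157%), 23 with a more positive difference in members and 4 with a more negative one. This count rested on the setting. It was 1 by DESeq2 (Ttr), 8 with RLE normalization, 5 when at least 4 marker genes were asked for, 12 without MF1, 81 without MF2, 11 without HF1 and 91 without HF2. With only nuclei free of precursor and exclusion UMIs the balance turned, with 33 genes called, 1 more positive and 32 more negative. Of these, 3 were shared with the 27 (Adarb2, Hs3st4 and Vip). The members left out in that setting counted among the rest. In 19 of the 27 genes over 50% of the member UMIs lay in the decile of members with most UMIs, and without those nuclei 19 genes passed, 7 more positive and 12 more negative, of which 6 were shared (Adarb2, Cx3cr1, P2ry12, Ptgds, Ttr and Vip). The microglia genes Cx3cr1 (4.75, 12.2, 23.0 and 15.9 CPM), P2ry12 (7.59, 13.4, 29.2 and 15.2 CPM) and C1qb (5.69, 7.31, 23.0 and 6.82 CPM) were highest in HF1, the library in which the whole microglia list was highest in members (128 CPM, against 41.8 to 70.6 CPM in the others). The part of that microglial RNA in the result was not tested. Ptgds, the prostaglandin D synthase gene, was at 234, 85.2, 299.9 and 86.4 CPM in members and 24.5, 82.4, 198 and 63.3 CPM in the rest.

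In chromatin 1 of 53347 regions differed between diets in members (0.00187%, edgeR FDR under 0.05). It was chr4:62651149-62653789 (mm10), in coding and other exon sequence of Rgs3, a regulator of G protein signalling, where MF1 had 35 counts, MF2 27, HF1 201 and HF2 198 (log2 2.18, SE 0.256, FDR 6.6e-04). Peaks were called in each library on its own. Here they covered 740, 875, 1502 and 1709 bp, and no base lay in a peak of all 4 libraries. Per kb of peak the ATAC CPM values were 17.2, 11.9, 31.2 and 33.0, a difference of 1.14 on the log2 scale, and in the rest 1.94, 6.70, 4.82 and 4.70. Rgs3 RNA in members was at 46.5, 42.6, 47.7 and 40.9 CPM, with overlap between the diets. The regions next in order also had wider peaks in HF. At chr1:63994279-63995588, in no annotated gene, the counts were 25, 32, 170 and 111 (FDR 0.0729), with 745 and 726 bp covered in MF and 1146 and 1117 bp in HF, and chr1:20743607-20744529 had 5, 5, 53 and 68 counts (FDR 0.0551). Among regions lower in HF none came near the threshold in this fit, and the one in an intron of Cdh13 (chr8:119112226-119113218) had 50, 59, 30 and 28 counts (log2 -1.42, FDR 0.9999). With the replicate number added as a block 11 regions were called, 5 higher and 6 lower in HF. The count of regions was 60 without MF2, 13 without HF1 and 6 without MF1 or without HF2, and 0 when members with a UMI of a precursor or exclusion gene were left out. The Rgs3 region did not pass in that last setting (edgeR FDR 0.966), while its log2 difference was 2.18 (SE 0.413).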

How the data were processed

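Nuclei were profiled in 4 multiome libraries, 2 per diet. The authors ran Cell Ranger ARC 2.0.1 against mm10, with peaks called per library, and deposited raw counts (UMIs per gene and ATAC counts per peak, 81.1 to 83.1% of them even). Of 14297 nuclei, the 11518 kept here had 1000 to 70000 ATAC counts, 500 to 7000 genes and less than 2% of UMIs from mitochondrial genes. The study's further filters on nucleosome signal and transcription start enrichment need fragment files, which were not used here. No doublet caller was run. The members and gene lists were chosen with earlier results of these data known.

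Counts were summed per library and class, for 183, 124, 278 and 215 members with 1053564, 821255, 1783685 and 1319365 UMIs. They were tested with edgeR 4.0.16 (TMM, filterByExpr, quasi-likelihood F test, Benjamini-Hochberg adjustment) in R 4.3.3. DESeq2 1.42.0 served as an alternative, and the code was tested on simulated data. The study calls the libraries of a diet biological replicates, but the animals or litters behind them are not given in the sources used here, so p-values measure the spread between these libraries. Promoter counts were summed over peaks within 1 kb of a GENCODE gene start, so a peak can count for neighbouring genes, and regions were merged peaks present in all 4 libraries. Expression values (CPM) are not per gene length.

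Genes were named by rule: the genes of the definition, the 20 highest ratios to the rest with at least 50 CPM in members, the 5 smallest p-values in each direction between diets, the 3 regions in each direction, the 8 largest differences between tertiles in each direction, and the most abundant members of each list. Exceptions to a count and other list members were named after their values were seen, as were the further Aspa and Mbp starts. Of the named regions 2, and a few members of the lists, are not reported here. Alternatives were another normalization, no low-count filter, a narrower promoter window, stricter membership, leaving out each library and a replicate block. Leaving out the tenth of members with most UMIs was added after seeing the data. Promoter sequences came from RefSeq (GRCm38.p6) and were not used for genes without an entry. Software included Python 3.11.15, SciPy 1.17.1 and pandas 2.3.3.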

Additional observations from a re-analysis of the deposited data

Results flagged for a closer look

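The diet difference (HF over MF) in members differed from that in all other kept nuclei for 27 genes (23 more positive in members) by an edgeR quasi-likelihood test of the interaction. The values that follow are the log2 difference of the 2 diet effects, members minus the rest. More positive in members, and also among the 5 genes with the smallest p-values higher in HF, were Sgcd (1.81), Hs3st4 (1.84), Hs6st2 (1.99), Brinp3 (1.04) and Chrm2 (2.78). The interneuron genes Vip (-2.67) and Adarb2 (-1.10) differed the other way. The microglia genes were C1qb (2.01), Cx3cr1 (1.80) and P2ry12 (1.51). C1qb was at 98.6, 38.6, 53.8 and 31.2 CPM in the rest, in the order MF1, MF2, HF1 and HF2, so that MF1 was highest there, while in members HF1 was highest at 23.0 CPM. Also among the 27 were Ttr (-2.99) and Ptgds (-1.26), both higher in members of the libraries with replicate number 1. Ttr was at 43.7, 1.22, 106 and 0.758 CPM in members and at 9.76, 0.103, 183 and 3.51 CPM in the rest. In members these values rest on 46, 1, 189 and 1 UMIs, so that MF2 and HF2 were at the floor.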

How the results depend on the processing

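Each diet had only 2 libraries, and how far depth and number limited what was called was not tested. The count of genes that differed between diets in members (0) was 12 without a low-count filter, 2 with only nuclei free of precursor and exclusion UMIs, 2 without the tenth of members with most UMIs and 0 to 50 when 1 library was left out. The count of regions (1) was 4, 0 and 3 in the first 3 of these settings, 3 with at least 4 marker genes and 6 to 60 when 1 library was left out. The interaction count (27) was 1 by DESeq2, 8 with RLE normalization, 5 with at least 4 marker genes and 11 to 91 when 1 library was left out. With nuclei free of precursor and exclusion UMIs, the members left out counted among the rest. In that setting 3004 promoters differed from the rest and the difference in share was 0.755 points. Sgcd turned to -0.35 there, and Sgcd and Brinp3 turned to -0.50 and -0.018 without the tenth of members with most UMIs. These settings had fewer member nuclei, and the cause was not tested. The samples of a diet share replicate numbers with the other, but the labels do not say that a number marks a batch, and the deviations of same-numbered libraries correlated at 0.211 over genes and 0.0475 over regions. With the replicate block 0 genes and 11 regions were called, 5 of the regions higher and 6 lower in HF. Of the alternatives of the main comparisons 48 left the value or count close and 23 moved it. A count was taken as close within 1.5-fold, whichever genes or directions it held. The interaction counts of 33 and 19 are thus among the close ones, though they shared 3 and 6 genes with the 27. For the single named genes and the Rgs3 region 87 left the call, 13 brought a gene past the threshold, 3 turned a gene's direction and 1 lost the call of the region.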
